A study of Homo sapiens with 4 samples.

Results

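Stemness markers are genes whose products are used to pick out the tumor-initiating cells of head-neck squamous carcinoma. The set described here held 10 genes, CD44, PROM1, LGR5, ALDH1A1, ALDH1A3, SOX2, KLF4, POU5F1, NANOG and BMI1. They were chosen as a list of markers, and every array probe whose accession mapped to one of these symbols was taken, whatever its signal. All 10 were found, out of 19062 genes that the array's probes could be matched to, and they were read by 13 of 34127 probes. ALDH1A1, POU5F1 and BMI1 had 2 probes each, and every other marker had 1.

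The data came from SAS cells, an established line from a tongue squamous cell carcinoma, in which AEG-1 (gene symbol MTDH, also named LYRIC) was knocked down by a short hairpin RNA. SB cells had received the lentiviral pLKO.1-LYRIC shRNA-B construct. For SCt cells, the control, the labels name the pLKO.1 vector and the methods of the study name a scrambled shRNA. Both lines were puromycin-selected stable clones (2 μg/ml, 14 days), so that 1 hairpin and 1 selected line stood for the knockdown. The same percentage of fetal bovine serum in the medium is recorded for all 4 arrays, so an effect of serum was not tested. RNA of both lines was hybridized together on each of 4 Agilent arrays, with SB always in the red channel (Alexa 647) and SCt always in the green channel (Alexa 555). The dyes were exchanged on 0 arrays, and a preference of a probe for 1 dye cannot be told apart from the effect of the knockdown. The labels call the arrays biological replicates but do not say whether they came from separate cultures, and if they did not, the p-values measure only technical spread. With 4 arrays every estimate is imprecise.

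Between 85.4% and 90.3% of the spots on each array passed the software's background test in the SB channel, and between 84.7% and 90.0% in the SCt channel. The value used throughout was the log2 ratio of SB over SCt, after normexp background correction with an offset of 50, which makes the ratios of weak spots smaller, and loess normalization within each array. Arrays 1 and 4 were the least alike. Across the 28507 probes tested, which are not independent replicates, the log2 ratios of arrays 1 and 4 had a Pearson r of 0.0473, whereas the other pairs of arrays lay between 0.323 and 0.461. Values without array 4 are therefore given for SOX2, the marker whose call changed when that array was left out.

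AEG-1 itself was examined first. Its probe (A_33_P3234168) gave intensities of 1486, 1867.5, 1894.5 and 1628 in SB cells on arrays 1 to 4, beside 6348, 9740.5, 11046.5 and 10924 in SCt cells. SB lay below SCt on every array, with log2 ratios of −3.18, −3.01, −3.12 and −3.41. The mean was −3.18 ± 0.17 (SD, n = 4 arrays), so AEG-1 fell 9.07-fold in the knockdown line (adjusted p of 5.21e-10, limma, Benjamini-Hochberg adjustment over all probes tested).

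Tumor-initiating cells of these carcinomas are usually isolated by a surface protein, such as the hyaluronan receptor CD44, or by high aldehyde dehydrogenase activity, which is measured with a fluorescent substrate and comes mainly from the ALDH1A enzymes. These enzymes oxidize retinaldehyde to retinoic acid, the ligand of the nuclear retinoic acid receptors, which restrains the growth and directs the differentiation of squamous epithelium. SOX2, KLF4, POU5F1 (OCT4) and NANOG are transcription factors of the pluripotency network, and BMI1 is a polycomb protein that silences cell cycle inhibitors and is needed for self-renewal.

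Detection of the markers comes first here. A probe was called detected when the scanner software marked it as well above background on all 4 arrays in both channels. By this rule 8 of the 10 markers were detected, namely CD44, ALDH1A1, ALDH1A3, SOX2, KLF4, POU5F1, NANOG and BMI1, each by every probe it had. PROM1 and LGR5 were not well above background in either channel on any array. Over the whole array, 83.2% of the 27953 genes and unmatched identifiers were detected by the same rule. The rule also passed genes of cell types that the labels do not name. PTPRC, the leukocyte antigen CD45, was detected, and its probe kept for the gene read between 21691 and 30920 in SB cells and between 10366 and 17961 in SCt cells. Detection here therefore describes the signal of a probe, and which transcripts gave that signal was not tested.

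PROM1, the surface glycoprotein CD133, read 63, 73.5, 68 and 61 in the SB channel and 46, 52, 50 and 48.5 in the SCt channel. The 95th percentile of the 153 negative control spots on the same arrays was 69, 70, 59 and 54.2 in the SB channel and 46.7, 53, 45.7 and 42.2 in the SCt channel. PROM1 thus exceeded the negative controls on 3 arrays in SB cells and on 2 in SCt cells, and the software's weaker flag for a positive and significant signal was set on all 4 arrays in both channels. LGR5, a receptor for R-spondins that marks Wnt-dependent stem cells, read 69, 52, 59 and 53 in SB cells and 45, 39, 46.5 and 39 in SCt cells. These values exceeded the negative controls on 0 arrays in the SB channel and on 1 in the SCt channel. Neither gene was given a fold change, and 0 member probes were seen in 1 channel only, so that there was no case for a lower bound.

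NANOG was detected by this rule with a weak signal, as array 4 shows, where it read 107 in SB cells against a negative control percentile of 54.2, and 71 in SCt cells against 42.2. POU5F1 and NANOG have pseudogene copies of nearly identical sequence, so the transcripts read by their probes are uncertain.

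**Figure D1:**
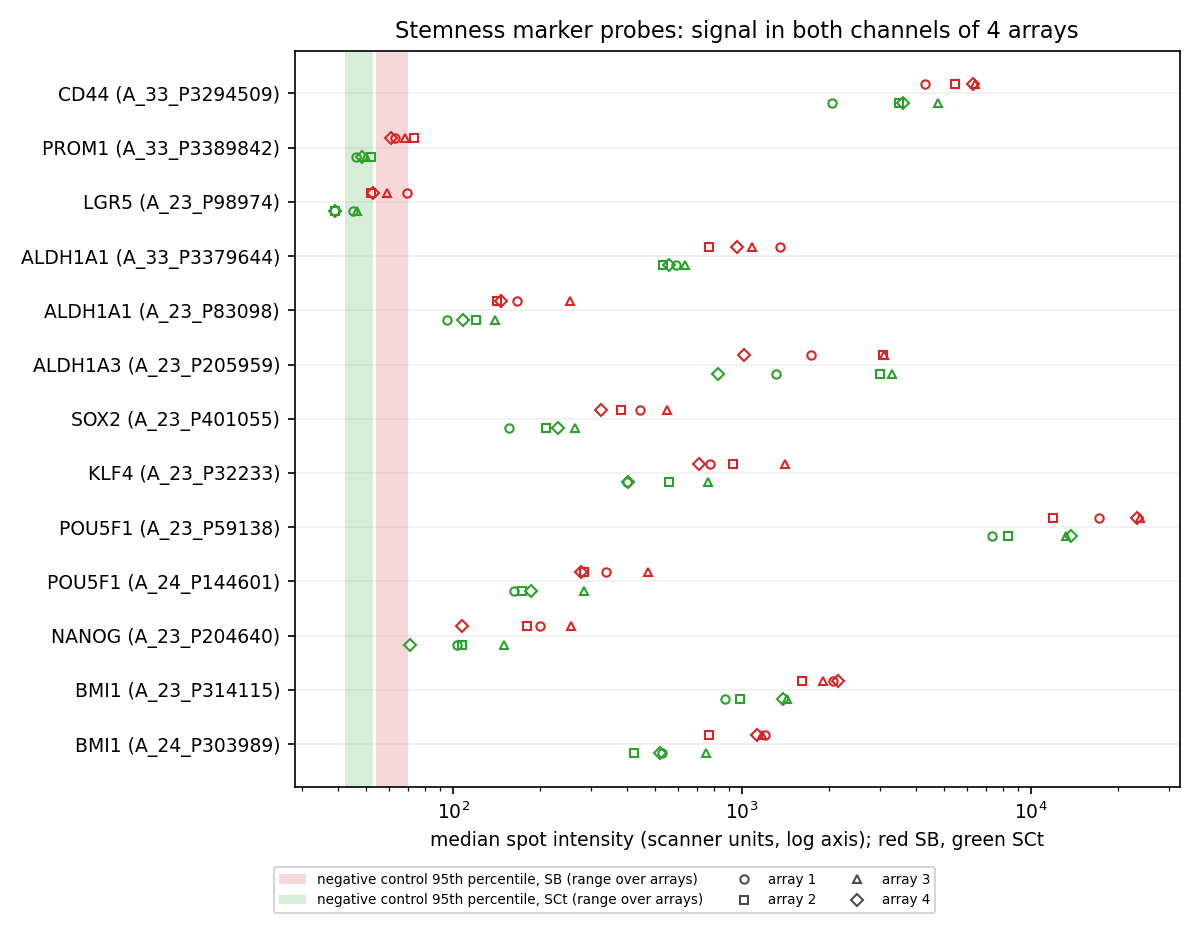
Median spot intensity (scanner units, log axis) of the 13 probes of the 10 stemness markers on 4 arrays, SB channel in red and SCt channel in green, with bands for the range over arrays of the 95th percentile of negative control spots. The PROM1 and LGR5 values lie in or beside the bands and every other probe lies to the right of its own band; positions of different probes are not comparable.

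ALDH1A3 was the only marker that changed past the threshold. Of the 8 markers tested, 1 had an adjusted p under 0.05 from limma, and it was lower in SB cells. Across the array 3.51% of 23485 genes, each read by its brightest probe, were past this threshold, 2.26% with a lower level and 1.26% with a higher level in SB cells. With 8 genes tested, nothing can be read from 1 call about the set as a whole. The median log2 ratio of the 8 markers was 0.05, beside 0.01 for all genes tested, and 5 of the 8 had a mean above 0, beside 55.4% of all genes. At an unadjusted p under 0.05, 3 of the 8 markers were counted (ALDH1A3, SOX2 and NANOG), beside 18.1% of all genes. This count used the brightest probe, and the other BMI1 probe, not counted, had an unadjusted p of 0.00632 from limma.

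Among the surface markers, CD44 was read by 1 probe (A_33_P3294509), with intensities of 4314, 5452, 6388 and 6318 in SB cells and 2053, 3499, 4781 and 3613 in SCt cells. After normalization the log2 ratios were −0.02, 0.01, −0.19 and 0.12. The arrays lay on both sides of 0 and the mean was −0.02 ± 0.13 (SD, n = 4 arrays; adjusted p of 0.901 from limma). The 95% confidence interval ran from −0.16 to 0.12, so that a change of CD44 beyond that range was not seen, and smaller changes could not be detected with these arrays.

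ALDH1A1, the retinaldehyde dehydrogenase long used as a stem cell marker in carcinomas, was read by 2 probes. The probe kept for the gene (A_33_P3379644) gave log2 ratios of 0.15, −0.07, 0.20 and 0.08, with a mean of 0.09 ± 0.12 (SD, n = 4 arrays), a 95% interval from −0.05 to 0.22 and an adjusted p of 0.488 from limma. The second probe (A_23_P83098) gave −0.02, −0.26, 0.26 and −0.12, with a mean of −0.03 ± 0.22 and an adjusted p of 0.867. Both probes had arrays on either side of 0. Their means differed in sign, and each mean lay nearer to 0 than its own SD between arrays.

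ALDH1A3, the other retinaldehyde dehydrogenase of the set, was read by 1 probe (A_23_P205959). Its intensities in SB cells were 1734, 3063, 3093 and 1017 on arrays 1 to 4, and those in SCt cells were 1307, 3001, 3299 and 823.5. Array 4 had the lowest signal in both channels. After normalization, in which the red channel is brought down to the level of the green one, the log2 ratios were −0.64, −0.59, −0.66 and −0.39. All 4 arrays lay below 0, and arrays 1 to 3 lay close together with array 4 nearest to 0. ALDH1A3 fell by 0.57 on the log2 scale, with an SD of 0.12 over the 4 arrays, a 95% interval from −0.71 to −0.43 and a limma adjusted p of 5.17e-04. The level in SB cells was 1.48-fold lower. Of the 530 genes with a lower level past the threshold, 38 had a larger fall than ALDH1A3. The scanner software's own log ratio, which uses other background and dye corrections, gave −0.72, −0.57, −0.67 and −0.45 for the same spots. For its array the study recorded genes above a cut-off of fold change, which was not used here. The 1.48-fold fall of ALDH1A3 and the changes of the called list genes described below do not reach that cut-off. The methods' t-test, whose threshold in the study is a p under 0.05 with no adjustment named, was run on the loess-normalized values. Without adjustment ALDH1A3 passed that threshold, with NANOG as the other of 2 markers. With the Benjamini-Hochberg adjustment added here, its adjusted p was 0.213 and 0 probes of the array passed, AEG-1 included.

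The log2 ratio of ALDH1A3 was lower than that of ALDH1A1 by 0.79, 0.51, 0.86 and 0.46 on arrays 1 to 4. The mean difference, ALDH1A3 minus ALDH1A1, was −0.66 ± 0.20 (SD, n = 4 arrays). This comparison was chosen after the values were seen, with all 4 differences below 0. A two-sided exact sign-flip test could then give only a p of 0.125, the smallest p that 4 arrays allow. That test therefore decides nothing about the isozymes.

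**Figure D2:**
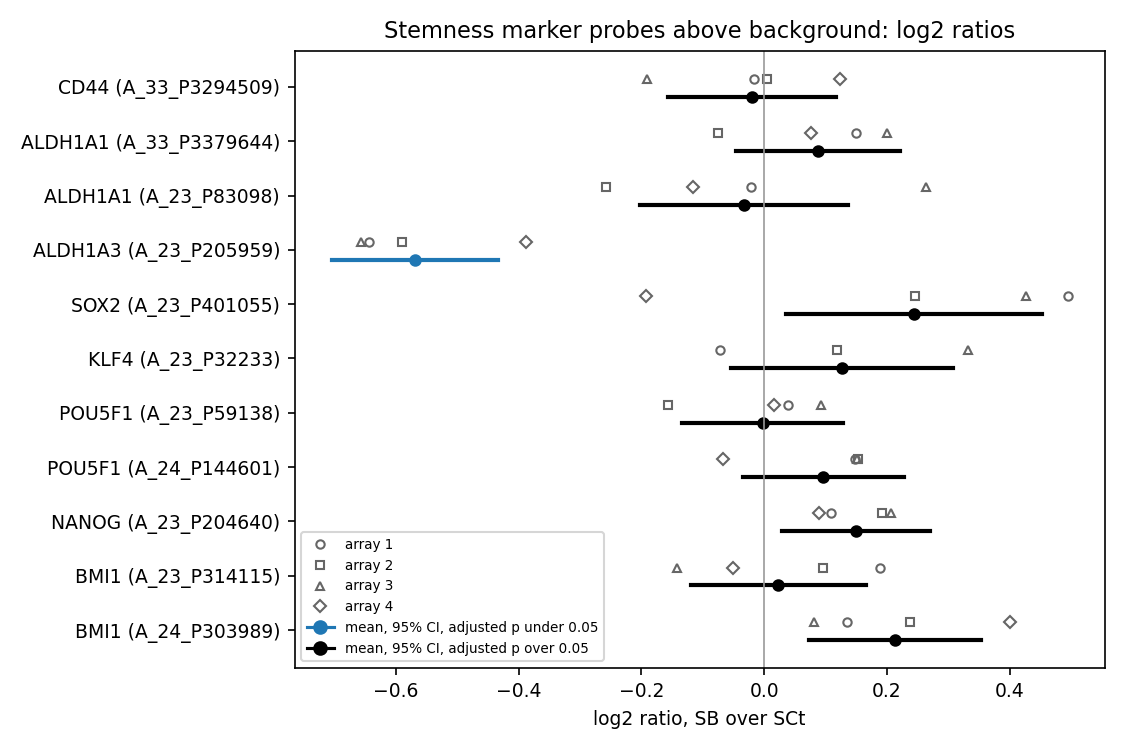
Log2 ratios of SB over SCt for the 11 member probes above background, with open symbols for single arrays and a filled circle and line for the mean and its 95% confidence interval from limma (blue where the adjusted p is under 0.05). ALDH1A3 is the only probe with all arrays below 0, and SOX2 has array 4 on the other side of 0 from arrays 1 to 3.

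SOX2, a transcription factor of embryonic and of basal squamous cells, was read by 1 probe (A_23_P401055). It gave intensities of 444, 380, 549 and 324 in SB cells and 156.5, 209, 264 and 231 in SCt cells. The log2 ratios were 0.49, 0.25, 0.43 and −0.19. Arrays 1 to 3 lay above 0 and array 4 below, so that the mean of 0.24 ± 0.31 (SD, n = 4 arrays) had the widest spread of all member probes and an adjusted p of 0.191 from limma. Without array 4 the mean was 0.39 and the adjusted p was 3.25e-04, whereas without array 1 the mean was 0.16 and the adjusted p was 0.446. The adjusted p of SOX2 ranged from 3.25e-04 to 0.569 over all alternatives, and only the removal of array 4 brought it past the threshold.

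KLF4, a zinc finger factor that also drives the barrier differentiation of stratified epithelium, had values on 3 arrays, because its spot on array 4 was marked as an outlier and was left out. Its probe (A_23_P32233) gave log2 ratios of −0.07, 0.12 and 0.33 on arrays 1 to 3, with a mean of 0.13 ± 0.20 (SD, n = 3 arrays) and an adjusted p of 0.447 from limma. The software's own log ratio for the spot left out was 0.20, within the range of the other arrays.

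POU5F1 was read by 2 probes. The one kept for the gene (A_23_P59138), with 11952.5 to 23745 in SB cells and 7329 to 13758 in SCt cells, gave log2 ratios of 0.04, −0.16, 0.09 and 0.02 and a mean of 0.00 ± 0.11 (SD, n = 4 arrays; adjusted p of 0.989 from limma). The other probe (A_24_P144601), with 276.5 to 471.5 in SB cells and 162 to 283 in SCt cells, gave 0.15, 0.15, 0.15 and −0.07 and an adjusted p of 0.426. On this probe array 4 alone lay below 0. When loess was replaced by median centring, the first probe had a log2 ratio of 0.21 and an adjusted p of 0.0419, so that its result depends on how any dependence of the ratio on intensity is removed. The adjusted p of POU5F1 ranged from 0.0419 to 0.990 over all alternatives.

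NANOG (A_23_P204640) read 199.5, 180, 255 and 107 in SB cells and 103.5, 107, 150 and 71 in SCt cells. Its log2 ratios of 0.11, 0.19, 0.21 and 0.09 were above 0 on all 4 arrays and differed little, with a mean of 0.15 ± 0.06 (SD, n = 4 arrays). The adjusted p of 0.168 from limma was not past the threshold, and 14.6% of all genes tested likewise had every array above 0. Under median centring the mean of NANOG was −0.02, so that its direction is not settled.

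BMI1, the polycomb member of the set, was read by 2 probes that differed. The one kept for the gene (A_23_P314115) gave log2 ratios of 0.19, 0.10, −0.14 and −0.05, with a mean of 0.02 ± 0.15 (SD, n = 4 arrays) and a limma adjusted p of 0.892. The other (A_24_P303989) gave 0.14, 0.24, 0.08 and 0.40, all above 0, with a mean of 0.21 ± 0.14 and an adjusted p of 0.0952. Arrays 1 and 2 lay above 0 on both probes, while arrays 3 and 4 did so on only 1 of them. Neither probe was past the threshold, and the difference between the probes was not tested.

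**Figure D3:**
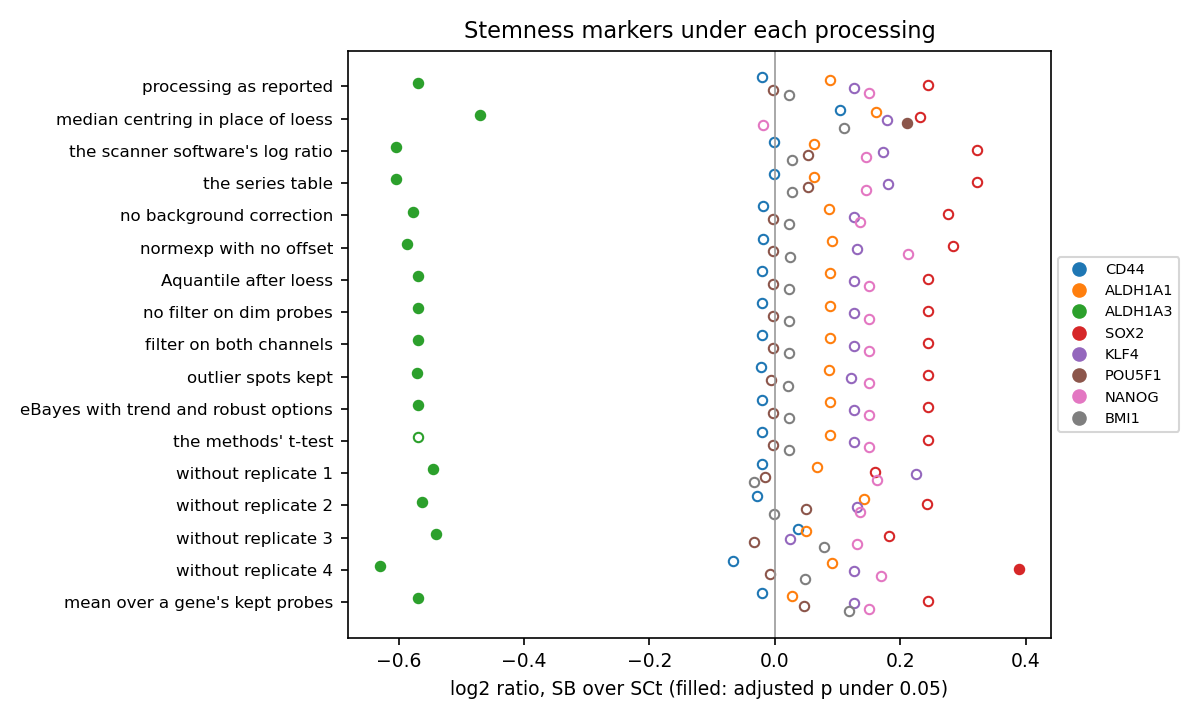
Log2 ratio of SB over SCt of the 8 markers above background (1 colour each, brightest probe) under the processing as reported and under each alternative, filled where the adjusted p is under 0.05. ALDH1A3 stays between −0.63 and −0.47, SOX2 is filled only without replicate 4, and POU5F1 only with median centring.

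The genes around each marker were then examined in lists, described by their counts and medians beside those of all genes, each gene by 1 probe. The lists were chosen with earlier results of these data known, and they were not tested as sets. Each count of genes that fell or rose stands beside 2.26% and 1.26% of all genes, and each count at an unadjusted p under 0.05 beside 18.1% of all genes.

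The retinoic acid list was the one closest to ALDH1A3. It held 14 genes for the transport, synthesis, breakdown and receptors of retinoic acid, of which 11 were tested. In SB cells 2 of the 11 fell (2.26% of all genes did), 0 rose and 9 did not pass the test. At an unadjusted p under 0.05 there were 6 of the 11, beside 18.1% of all genes. The median log2 ratio of the list was −0.13, beside 0.01 for all genes. RARG, the retinoic acid receptor gamma of epithelia, gave log2 ratios of −0.43, −0.37, −0.72 and −0.34, a 1.38-fold lower level with a limma adjusted p of 0.00393. CYP26B1, a hydroxylase that degrades retinoic acid, gave −0.23, −0.22, −0.29 and −0.22, a 1.18-fold lower level with an adjusted p of 0.0315. For both genes all 4 arrays lay below 0.

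The call of CYP26B1 was less firm than that of RARG. Its signal was weak (98 to 121 in SB cells and 69 to 101 in SCt cells), its log2 ratio was −0.45 when normexp was run with no offset, and its adjusted p was 0.0699 with the trend and robust options of eBayes and 0.0874, 0.132 and 0.153 without array 1, 2 or 3. In all, 5 of the 11 genes lay below 0 on every array and 0 lay above 0 on every array, beside 12.2% and 14.6% of all genes. The other 3 of the 5 were CRABP2, which hands retinoic acid to its receptors, and the receptors RARA and RARB, named here after their values were seen. Their means were −0.13, −0.16 and −0.22, and their adjusted p were 0.230, 0.137 and 0.0737. A second probe of RARA had a mean of 0.04. Among the other genes CRABP1, RDH10 and STRA6 had means of 0.07, 0.03 and 0.02, DHRS3 and RXRA had means of −0.04 and −0.02, and RDH11 had a mean of −0.15 (adjusted p of 0.194) with arrays 2 to 4 below 0. CYP26A1 passed the background test of each channel on 2 arrays only and was left untested, the spots of RXRB were outliers on all 4 arrays, and DHRS9 was not matched to a probe.

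**Figure D4:**
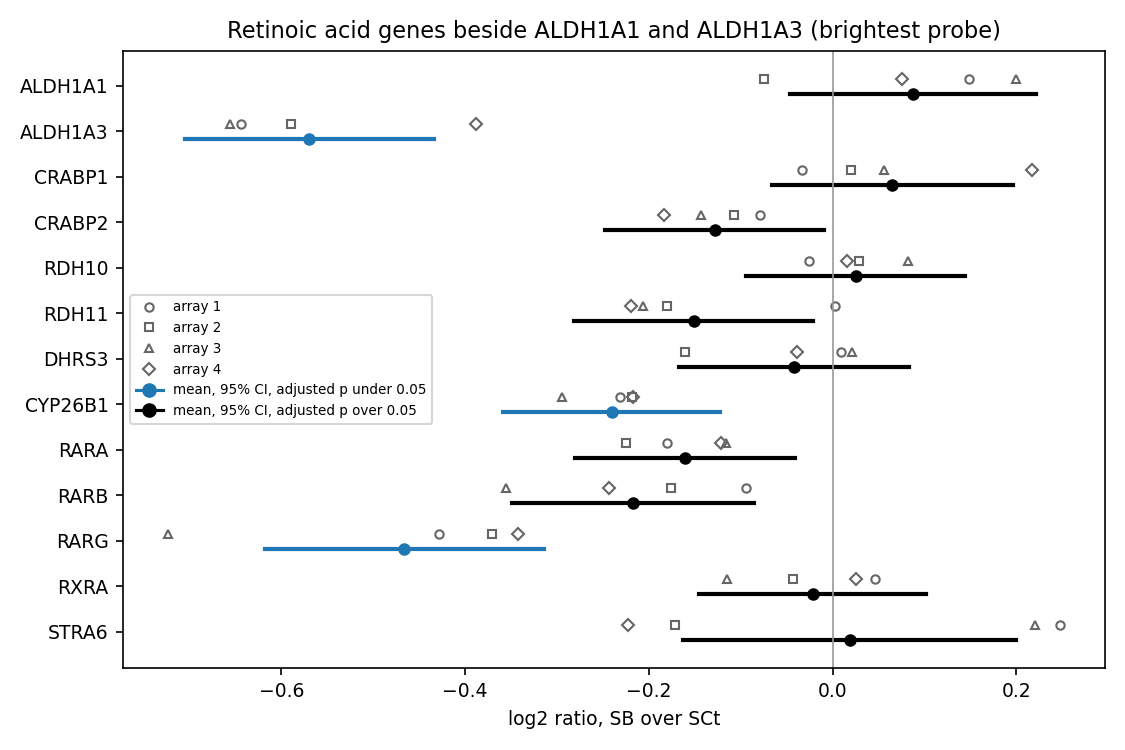
Log2 ratios of SB over SCt for ALDH1A1, ALDH1A3 and the 11 genes tested from the retinoic acid list, with open symbols for single arrays and a filled circle and line for the mean and its 95% confidence interval (blue where the adjusted p is under 0.05). ALDH1A3, RARG and CYP26B1 are blue and lie below 0, while ALDH1A1 lies on both sides of 0.

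Promoter sequences are given for the genes of retinoic acid handling that fell and for ALDH1A1, the isozyme that did not pass the test. Each is the stretch of 250 bases before the start of transcription (GRCh38.p14, read 5′ to 3′ on the strand of the gene). ALDH1A3 lies at chr15:100879581-100879830 on the plus strand, ALDH1A1 at chr9:72953054-72953303 on the minus strand, RARG at chr12:53232210-53232459 on the minus strand and CYP26B1 at chr2:72147863-72148112 on the minus strand. Capitals mark matches on either strand to the GC box GGGCGG, to CCAAT and to TATAAA.
ALDH1A3: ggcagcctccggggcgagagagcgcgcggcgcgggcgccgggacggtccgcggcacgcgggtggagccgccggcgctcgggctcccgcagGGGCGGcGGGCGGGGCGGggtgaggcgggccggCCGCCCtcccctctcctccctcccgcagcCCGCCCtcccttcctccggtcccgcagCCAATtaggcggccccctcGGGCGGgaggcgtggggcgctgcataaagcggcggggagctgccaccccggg
ALDH1A1: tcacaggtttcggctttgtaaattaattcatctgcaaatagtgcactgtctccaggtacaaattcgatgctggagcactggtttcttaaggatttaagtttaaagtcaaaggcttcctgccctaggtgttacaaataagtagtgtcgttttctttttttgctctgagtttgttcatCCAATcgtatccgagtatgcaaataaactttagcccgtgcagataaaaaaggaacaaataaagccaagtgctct
RARG: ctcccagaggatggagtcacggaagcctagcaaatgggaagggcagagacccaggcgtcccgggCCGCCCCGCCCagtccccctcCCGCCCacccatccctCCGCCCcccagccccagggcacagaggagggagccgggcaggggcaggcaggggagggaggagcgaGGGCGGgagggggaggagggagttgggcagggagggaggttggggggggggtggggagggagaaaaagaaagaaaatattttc
CYP26B1: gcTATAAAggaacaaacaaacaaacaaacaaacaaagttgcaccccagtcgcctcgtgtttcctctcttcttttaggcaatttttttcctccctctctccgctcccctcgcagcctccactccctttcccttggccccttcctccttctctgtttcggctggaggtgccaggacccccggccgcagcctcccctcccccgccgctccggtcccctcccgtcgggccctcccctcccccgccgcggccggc
The ALDH1A3 promoter held 6 matches to GGGCGG, of which 2 shared 1 base, and 1 to CCAAT, and 82.4% of its bases were G or C. That of RARG held 5 matches to GGGCGG, of which 2 also shared 1 base. The ALDH1A1 promoter had 38.4% G or C, 1 match to CCAAT and 0 to GGGCGG. The CYP26B1 promoter held 1 match to TATAAA. Genes that did not pass the test had as many matches, with 6 to GGGCGG in 1 promoter each of BMI1 and RXRA, 5 in 1 of RARA and 4 in that of KLF4, so that the matches do not set apart the genes that fell. Of 35116 RefSeq promoters of this length, 42.6% held GGGCGG, 32.0% CCAAT and 10.7% TATAAA. The AGGTCA and AGTTCA sites of nuclear receptors, which were in 12.1% and 8.80% of all promoters, and the kappaB motif of NF-κB, which was in 5.21%, had 0 matches in these 4 windows. AGGTCA had 1 match each in the promoters of CD44 and SOX2, and also matched promoters of RARA, RARB, DHRS3 and STRA6. AGTTCA matched promoters of RARB, CYP26A1 and DHRS9, and the kappaB motif matched promoters of BMI1 and RARA. A match is only a description of the letters, and its absence says nothing about binding elsewhere.

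Other aldehyde dehydrogenases, which add to the enzyme activity used to sort tumor cells, were not called. Of the 15 tested, 0 had an adjusted p under 0.05 from limma (3 at an unadjusted p under 0.05, and 0 with the trend and robust options), and the median log2 ratio was 0.01. ALDH3B1, an enzyme of lipid aldehydes, gave −0.08, −0.06, 0.05 and −0.01, and turned to 0.19 with a limma adjusted p of 0.0350 under median centring. ALDH6A1, a mitochondrial enzyme of valine breakdown picked after the values were seen, had the lowest adjusted p of the list, with 0.23, 0.14, 0.22 and 0.28 and an adjusted p of 0.0546. ALDH1A2, the remaining retinaldehyde dehydrogenase of the family, was not detected. Of these 15 enzymes 2 lay below 0 and 2 above 0 on every array, without passing the test.

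Other surface and functional markers of carcinoma stem cells were looked at next. All 19 genes of that list were detected and tested, of which 3 fell (2.26% of all genes did), 0 rose and 16 did not pass the test. The median log2 ratio was −0.10, and 9 of the 19 had an unadjusted p under 0.05, beside 18.1% of all genes. NGFR, the low-affinity nerve growth factor receptor, gave −0.89, −0.61, −0.52 and −0.52, a 1.55-fold lower level with an adjusted p of 5.43e-04. CD24, a mucin-like surface protein, gave −0.36, −0.45, −0.37 and −0.58, a 1.36-fold lower level with an adjusted p of 0.00203. MET, the receptor of hepatocyte growth factor, gave −0.40, −0.25, −0.39 and −0.36, a 1.27-fold lower level with an adjusted p of 0.00626, which was 0.0681 without array 3. All 3 genes lay below 0 on every array. Of the 19 genes, 5 lay below 0 and 2 above 0 on every array, beside 12.2% and 14.6% of all genes.

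Among the genes that act with CD44, which include its ligands, its cytoskeletal anchors and the splicing factors that make its variant forms, 14 of 17 were tested and 1 rose. This was VCAN, a matrix proteoglycan that binds hyaluronan, with log2 ratios of 0.64, 0.52, 0.41 and 0.43 and a 1.42-fold higher level in SB cells (adjusted p of 8.79e-04 from limma). VCAN was read at 191 to 292 in SB cells and 85 to 131 in SCt cells. Its log2 ratio was 0.71 when normexp was run with no offset. By the scanner software, which uses other background and dye corrections, its log2 ratio was 0.77. None of the other 13 passed the test. At an unadjusted p under 0.05 there were 4 genes, VCAN and 3 that lay below 0 on every array, EZR (mean of −0.29), RDX (−0.24) and CD74 (−0.16), with adjusted p of 0.0613, 0.0742 and 0.148. The genes HAS2 and SRGN were not detected. The list median was −0.04.

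For the transcription factors, the KLF family had 12 of 14 genes tested, of which 2 fell, and a median log2 ratio of 0.02, with 2 genes below 0 and 2 above 0 on every array. At an unadjusted p under 0.05 there were 3, the last being KLF17, which lay above 0 on every array (0.24, 0.15, 0.18 and 0.31; adjusted p of 0.0550). KLF11 gave −0.69, −0.68, −0.76 and −0.21, a 1.50-fold lower level with an adjusted p of 0.00307, and array 4 stood apart from the others. KLF3 gave −0.18, −0.47, −0.43 and −0.26, a 1.26-fold lower level with an adjusted p of 0.0136. Without array 3 neither was past the threshold (adjusted p of 0.0790 and 0.129), and without array 2 KLF3 was not (0.0943). The other pluripotency factors had 11 of 16 genes tested, of which 1 fell (1 at an unadjusted p under 0.05), and a median of −0.05. KLF5, which maintains proliferating epithelial cells, gave −0.35, −0.31, −0.43 and −0.06, with an adjusted p of 0.0378. This call ended under 9 of its 16 alternatives, with an adjusted p between 6.23e-04 and 0.337 over all of them. LIN28A, LIN28B, ZFP42 and DPPA4, genes of the pluripotent state, were not detected.

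Of the SOX family 13 genes were tested and 0 were called by limma (2 at an unadjusted p under 0.05), with a median of 0.01. Those 2 genes, SOX8 and SOX15, were picked after the values were seen. SOX8 lay above 0 on every array (0.19, 0.20, 0.29 and 0.19), with an adjusted p of 0.0510 from limma. SOX15 lay below 0 on every array (−0.14, −0.13, −0.16 and −0.31), with an adjusted p of 0.105 from limma. In this family 2 genes lay below 0 and 2 above 0 on every array. SOX13, a factor of developing cartilage and T cells, gave −0.07, −0.01, −0.08 and 0.15, and turned to 0.35 with an adjusted p of 0.00264 under median centring. The polycomb partners of BMI1 and their target CDKN2A had 22 of 23 genes detected, and of the 21 tested 0 were called (3 at an unadjusted p under 0.05), with a median of −0.03. Those 3 all had means below 0. On every array 4 of the 21 lay below 0 and 0 lay above 0, beside 12.2% and 14.6% of all genes. CDKN2A, the cell cycle inhibitor locus that BMI1 silences, gave 0.02, 0.09, 0.00 and −0.08, and 0.22 with an adjusted p of 0.0282 under median centring. The list of the LGR5 family and Wnt stem cell genes had 10 of 14 genes tested and 0 called (3 at an unadjusted p under 0.05) and a median of 0.01, with ASCL2, a stem cell factor of the intestine, at −0.01, 0.08, 0.09 and 0.15, and at 0.30 with an adjusted p of 0.00563 under median centring. The R-spondin ligands RSPO1, RSPO2 and RSPO4 and the stem cell marker OLFM4 were not detected. With the trend and robust options of eBayes, 0 genes of these 3 lists were called.

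**Figure D5:**
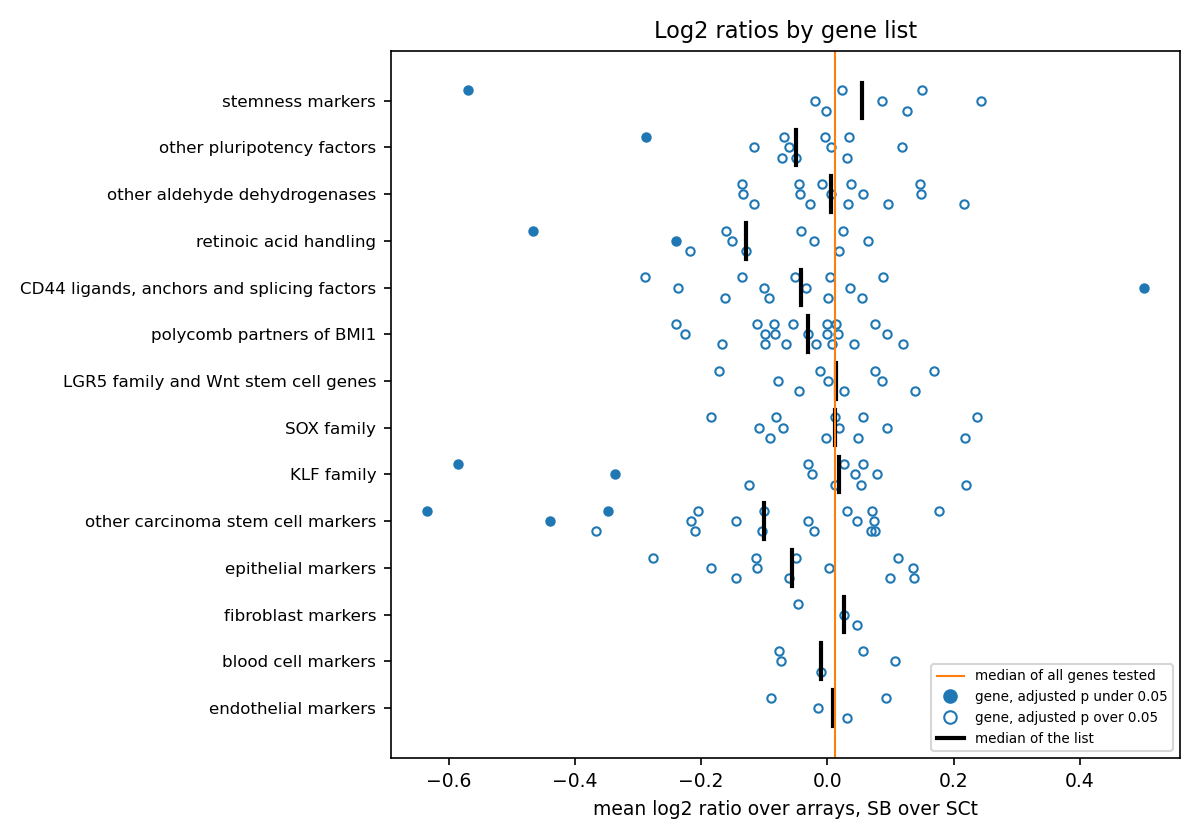
Mean log2 ratio of SB over SCt for each gene tested in the stemness set and in each related or cell type list (points, filled where the adjusted p is under 0.05), with a black bar for the median of the list and an orange line for the median of all genes tested. The retinoic acid list has its median at −0.13 and 2 filled genes below 0, and the other aldehyde dehydrogenases have none.

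Epithelial identity was checked with 12 genes, among them KRT5, KRT14, TP63 and DSG3 of squamous cells and KRT8 and KRT18 of simple epithelium. All 12 were detected in both channels, and 0 were called by limma (0 with the trend and robust options). At an unadjusted p under 0.05 there were 5 of the 12, beside 18.1% of all genes, and the list median was −0.06. KRT8 gave −0.33, 0.18, −0.35 and 0.06, and its mean turned from −0.11 to 0.32 with a limma adjusted p of 0.0132 under median centring. Of the fibroblast markers COL3A1, LUM and PDGFRB were not detected, and COL1A1, COL1A2 and DCN were. All 5 blood cell markers and all 4 endothelial markers, PTPRC and CDH5 among them, were detected as well, and none of these 3 lists had a gene at an unadjusted p under 0.05. Their median log2 ratios were 0.03, −0.01 and 0.01. Under median centring the log2 ratio of PTPRC turned from −0.01 to 0.23, with a limma adjusted p of 0.0168. A measure of how many cells carried each marker was not used here, and fewer marker-bearing cells and less RNA per cell cannot be told apart in these bulk RNA samples.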

How the data were processed

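Total RNA of SB and SCt cells was measured on 4 two-colour arrays, 1 group of 4 replicates. The authors deposited, for each array, the output of the scanner software (Agilent Feature Extraction 10.5.1.1), which holds median spot intensities and local background intensities on a linear scale, not normalized, with the software's own ratio on a log10 scale and its detection and outlier flags. The authors also deposited a series table of log2 ratios, used only as an alternative. Each labelling took 15 μg of RNA.

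In R 4.3.3 with limma 3.58.1, normexp (offset 50) was run on all 44495 spots, the 1377 control spots were removed, non-uniform and population outlier spots were left out (814 to 1168 per array), log2 ratios were loess-normalized within arrays, and spots of a probe were averaged. A probe was kept if 1 of the channels was well above background on every array and at least 2 arrays had values. The 28507 probes kept were fitted with lmFit and eBayes against 0, with Benjamini-Hochberg adjustment. The brightest kept probe stood for a gene. Accessions of 24826 of 34127 probes matched the RefSeq table (GRCh38.p14), and the other 9301 kept their identifier. All arrays were read in 1 scan, so no batch could be used as a block. Promoters were taken from a table made from RefSeq, and those of 8 of the 10 members and 13 of 14 retinoic acid genes were used. The steps were tested on simulated data. All changes planted there were larger than the fall of ALDH1A3, and dye preferences of single probes were not simulated.

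The genes named with values by rule are all members, MTDH and, of each list, up to 4 genes past an adjusted p of 0.05 with 1 sign on all arrays, or else its brightest gene, with the defining genes of the cell type lists. Some list genes are named only because they were not detected, not tested or not matched to a probe. Other genes of the lists (CRABP1, CRABP2, RARA, RARB, RXRA, RDH10, RDH11, DHRS3, STRA6, ALDH6A1, SOX8, SOX15, KLF17, EZR, RDX, CD74) were named after their values were seen, outside this rule. The lists hold the genes reported, and 2 genes first listed were taken out of the lists and their counts, for a reason unrelated to their values, and are not reported here. The counts of the lists hold only for the genes left in them. Members and lists were chosen with earlier results of these data known. The alternatives were median centring, the software's ratio, the series table, no background correction, no offset, Aquantile, no filter, outlier spots kept, a filter on both channels, the methods' t-test, trend and robust options, leaving out each array, averaging a gene's kept probes, and other rules for detection.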

Additional observations from a re-analysis of the deposited data

Results flagged for a closer look

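Among 30 probes with values on all 4 arrays, taken from the stemness markers, AEG-1 and the named genes of the lists, 2 had 1 array far from the others for the range of the group. Chance alone gives such a result in about 5% of groups of this size, so that 2 of 30 is about as many as chance gives. The second POU5F1 probe (A_24_P144601) read −0.0672 on array 4, while the other arrays read between 0.148 and 0.152. KLF11 read −0.21 on array 4, beside −0.76 to −0.68 on the other arrays. The part of array 4 in these values was not tested.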

How the results depend on the processing

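The number of markers detected in both channels was 8, 9 with the positive and significant flag (PROM1 added), 8 above the negative controls, and 8 without any 1 array. One marker, ALDH1A3, was past the threshold; with median centring there were 2 (POU5F1 added), with the methods' t-test 0, and with each array left out 1 to 2 (SOX2 added without array 4). ALDH1A3 kept its sign under 16 alternatives, between −0.63 and −0.47, and its call under 15 of them. These alternatives are not independent checks. Aquantile, the changes of filter, the changes of test and averaging of probes cannot change the log2 ratio of a kept gene with 1 probe. Under them the log2 ratio of ALDH1A3 stayed at −0.57. The software's ratio and the series table both gave −0.60. With the methods' t-test ALDH1A3 had an adjusted p of 0.213, where the adjustment was added here. Without it 2 markers, ALDH1A3 and NANOG, had a p under 0.05.

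Of all probes, 1055 were past the threshold. This number was 8939 with median centring, 698 with the series table, 579 with the trend and robust options, 0 with the methods' t-test (3936 at an unadjusted p under 0.05), and 204 to 1991 with each array left out (204 without array 3, 427 without array 2, 640 without array 1 and 1991 without array 4). Higher probes made up 35.6% of the calls, 62.6% with median centring (5599 higher, 3340 lower), 17.6% with the trend and robust options (102 higher, 477 lower) and 27.7% to 43.1% with each array left out. The cause of these differences was not tested.

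With median centring 5 genes changed sign and passed the threshold: POU5F1 (0.21), ALDH3B1 (0.19), KRT8 (0.32), PTPRC (0.23) and SOX13 (0.35). Of the other values of named genes, 384 kept their direction and side of the threshold or moved within the spread between arrays, 26 were no longer past the threshold, 3 were newly past it (SOX2 without array 4, CDKN2A and ASCL2 with median centring) and 12 moved by more than the spread. PROM1 and LGR5, tested only with no filter, were not past the threshold there.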
